A study of Mus musculus with 16 samples.

Results

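The genes described here encode collagens, laminins and their partners in basement membranes, and they were followed in mouse retina before and after optic nerve crush. They were chosen by symbol alone, from the 3 deposited tables of all genes. The rule took every collagen chain gene, every laminin chain gene of the Lama, Lamb and Lamc series, fibronectin (Fn1), the nidogens Nid1 and Nid2, and perlecan (Hspg2). It found 59 genes among the 20278 in any table, and all 59 stood in each of the 3 tables and were tested. By role they were 11 fibril-forming collagens, 9 fibril-associated collagens, 6 chains of collagen IV, 6 of collagen VI, 4 transmembrane collagens, 3 short-chain collagens, 2 collagens that carry endostatin, 1 anchoring fibril collagen and 2 others. With them stood 5 laminin alpha, 3 beta and 3 gamma chains, 3 nidogen and perlecan genes, and fibronectin. The symbol rule used no measured value, but the members were chosen with earlier results of these data known.

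Basement membranes are thin sheets of matrix in which a laminin network and a collagen IV network are joined by nidogen and perlecan. Each laminin is built from an alpha, a beta and a gamma chain, and each collagen from alpha chains wound into a helix. In the retina such sheets form the inner limiting membrane, on which the end feet of Mueller glia rest, sheathe the blood vessels, and lie under the retinal pigment epithelium, while fibril-forming collagens belong to the vitreous, the sclera and the optic nerve sheath.

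RNA of whole retina from adult C57BL/6 mice of about 6 weeks was sequenced in 4 groups. Uninjured retinas (4 libraries) had an intact nerve, and the labels name no virus for them. GFP (3 libraries), HDAC5AA (4) and HDAC5DAD (4) retinas had first received AAV2, an adeno-associated virus, in the vitreous with the named coding sequence. After 2 weeks the optic nerve was pinched for 3 seconds about 1 mm behind the optic disc, and the retina was collected 4 days later. The design text places the expression in retinal ganglion cells, the labels name no promoter, and they do not say what AA and DAD change in HDAC5, a class IIa histone deacetylase. Every injured group carried a virus, so injury and virus cannot be told apart in a comparison with Uninjured, whereas GFP, HDAC5AA and HDAC5DAD differ by the delivered protein. GFP replicate 1 was not analysed here. Nothing in the labels says that replicates came from separate animals, so each p-value here reflects only the scatter among these libraries, and that scatter may be technical.

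The libraries held between 10940144 reads (HDAC5AA replicate 4) and 30974058 reads (Uninjured replicate 3), and the 59 genes took between 0.096% and 0.129% of them. The 5 rod markers summed to between 1171700 and 1428600 normalized reads in all 15 libraries. Hdac5 itself had 6593 to 6959 normalized reads in Uninjured and 6566 to 6673 in GFP. With the delivered protein it had 6694 to 8444 (HDAC5AA) and 7467 to 8634 (HDAC5DAD). Features that hold ribosomal RNA sequence took under 1% of reads in Uninjured replicates 2 and 3, HDAC5AA replicates 1 and 2, and HDAC5DAD replicates 2 and 3, and up to 9.87% in the others. GFP replicate 2 stood apart from the other libraries in lens markers, and GFP replicate 3 in markers of other tissues next to the retina, as described with the genes they touch. Levels are given below as normalized reads, that is, reads divided by 1 size factor per library on a scale shared by all 15 libraries. Comparisons with Uninjured were tested within each deposited table with limma on log2(value + 1), and a gene passed at a Benjamini-Hochberg adjusted p under 0.05 over all genes of that table.

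Against Uninjured, most of the 59 genes did not pass, and 4 passed in the same direction in each injured group. In GFP 7 passed (5 higher, 2 lower), or 11.9% of the 59, where 11.4% of all genes did (5.57% higher, 5.83% lower). In HDAC5AA 8 passed (6 higher, 2 lower), or 13.6%, against 8.55% of all genes (5.38% higher, 3.17% lower). In HDAC5DAD 8 passed (6 higher, 2 lower), or 13.6%, against 13.3% of all genes (7.8% higher, 5.47% lower). The shares in GFP and HDAC5DAD were therefore near those of all genes. Among libraries with at least 1% of ribosomal RNA reads (2 Uninjured, 3 GFP, 2 HDAC5AA and 2 HDAC5DAD) 3, 4 and 6 of the 59 passed, or 5.08%, 6.78% and 10.2%, beside 7.87%, 4.38% and 9.76% of all genes. Among those under 1% (2 libraries in Uninjured and in each HDAC5 group, none in GFP) 5 passed in HDAC5AA (8.47%, beside 3.96% of all genes) and 9 in HDAC5DAD (15.3%, beside 8.03%), and Col5a3 and Lamb3 passed as higher in both. Among those with at least 1%, Col5a3 passed in all 3 comparisons and Lamb3 in none. At an unadjusted limma p under 0.05 there were 16, 14 and 17 members, or 27.1%, 23.7% and 28.8%, beside 23.1%, 17.9% and 23.4% of all genes. The median log2 fold change of the 59 was 0.04 in GFP, -0.00 in HDAC5AA and -0.03 in HDAC5DAD, beside 0.01, -0.01 and -0.01 for all genes. Their summed level overlapped between the groups, with 20051 to 22576 normalized reads in Uninjured, 20230 to 23828 in GFP, 20424 to 21363 in HDAC5AA and 18794 to 23365 in HDAC5DAD.

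Altogether 11 genes passed in at least 1 comparison with Uninjured. Col5a3, Lama5 and Lamb3 were higher and Lamb1 was lower in each of the 3 injured groups. Col4a1, Col4a6 and Col3a1 were higher in 2 groups each, Col2a1 was lower in 2, and Nid1, Col26a1 and Col22a1 passed in 1 each. Libraries of GFP lay wholly above Uninjured for 5 members and wholly below for 3 (10.5% and 11.4% of all genes). For HDAC5AA these counts were 5 and 7 (7.23% and 5.53% of all genes), and for HDAC5DAD 4 and 3 (9.48% and 7.11%). The 3 comparisons share the same 4 Uninjured libraries, so their calls are not independent. On the scale shared by all libraries, all 11 injured libraries lay above all 4 uninjured ones for Col5a3 and Lamb3, as for 4.71% of all genes. They lay below for Lamb1 and Lama1, as for 3.09% of all genes. In the same retinas the markers of activated microglia and myeloid cells were higher: 9 of 10 passed in GFP, 9 in HDAC5AA and 10 in HDAC5DAD, and their summed level went from 609.7 to 692 normalized reads in Uninjured to 2325 to 3756 in GFP, 2663 to 3852 in HDAC5AA and 3229 to 4430 in HDAC5DAD. Of 10 endothelial markers 0, 2 and 1 rose, and of 10 pericyte and smooth muscle markers none rose and 1 fell, in HDAC5DAD. Of 5 markers of bipolar and Mueller cells 2, 1 and 2 fell, Glul (glutamine synthetase) in each group, and their summed level was 67300 to 72493 normalized reads in Uninjured and 51047 to 63395 in the injured libraries. Those groups did not overlap, as with Lamb1 and Lama1. Whether these cell types had a part in the changes of matrix genes was not tested. In bulk retina, fewer cells of a type and less RNA per cell cannot be told apart.

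**Figure D1:**
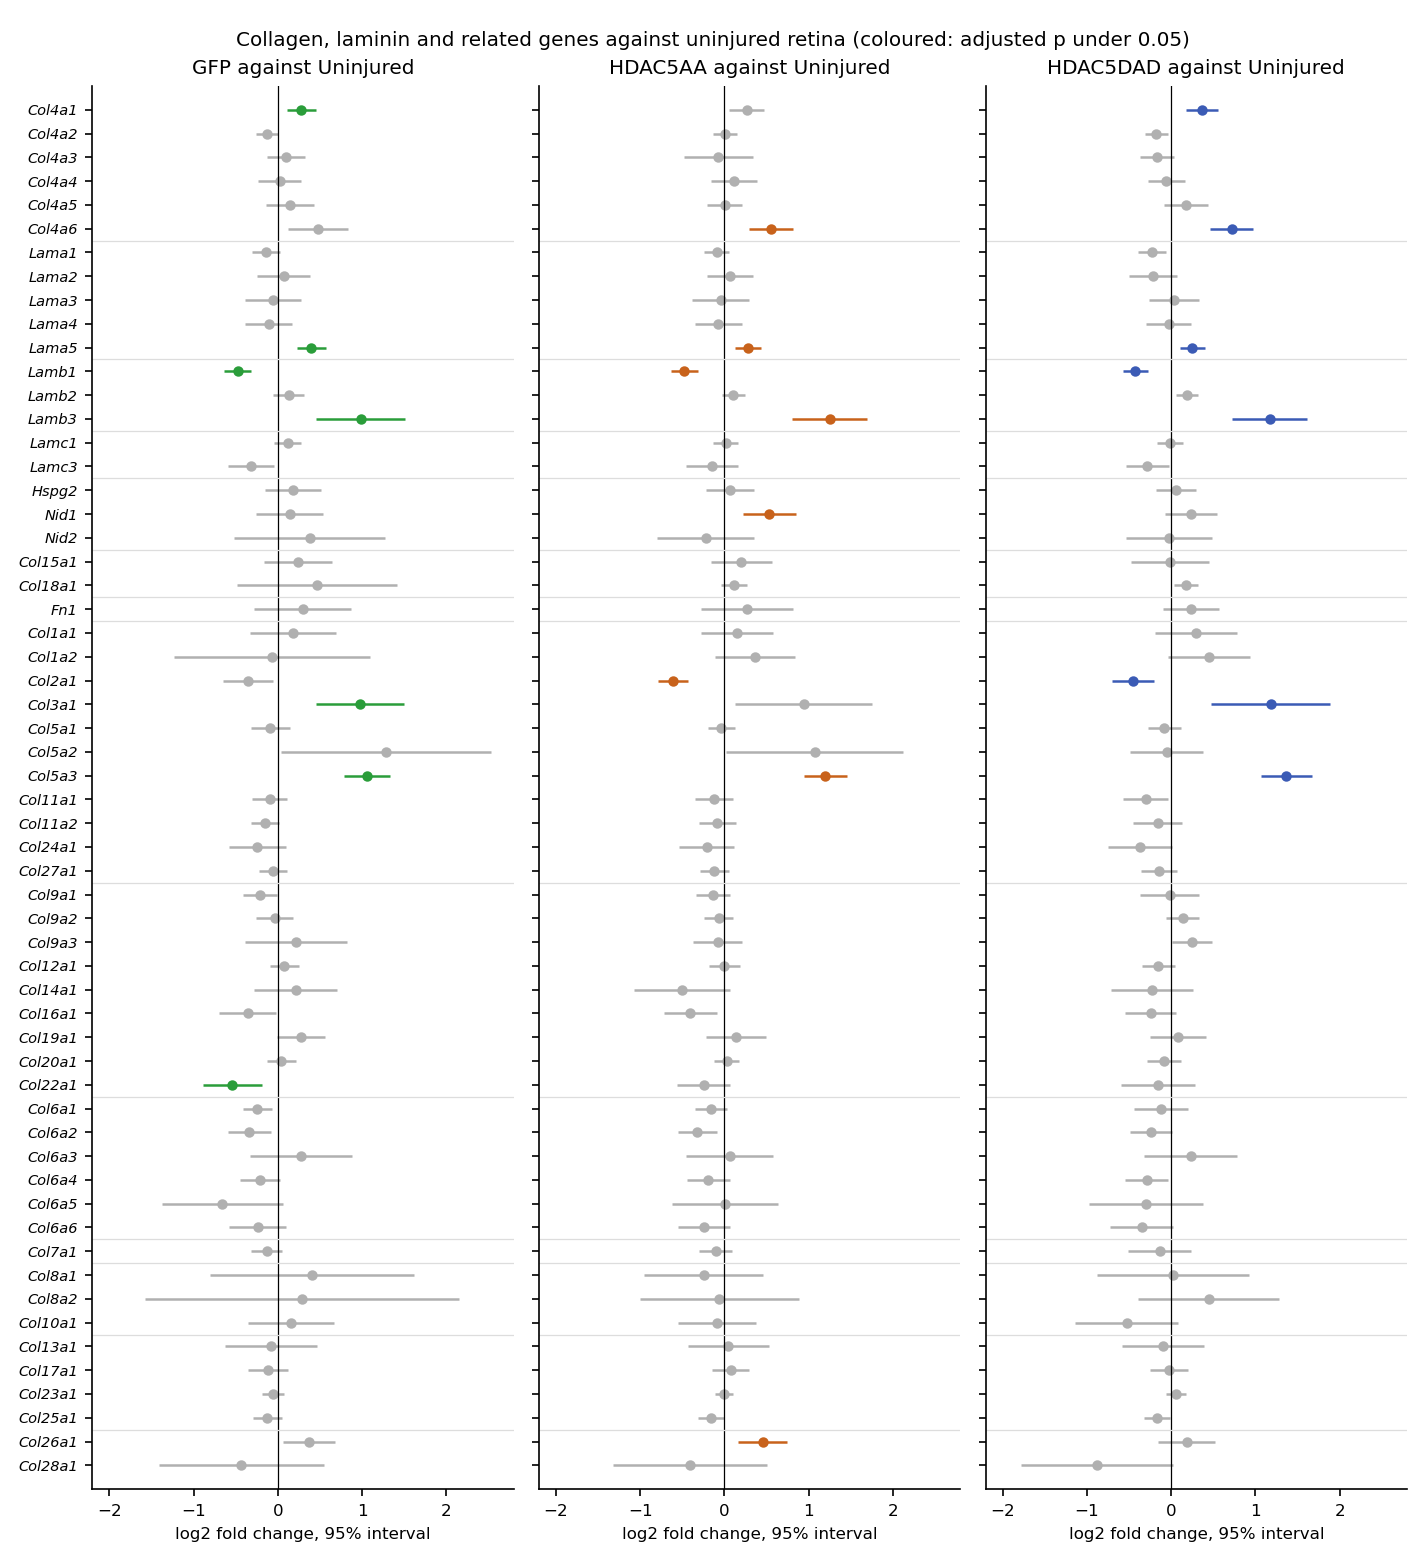
Log2 fold change of 58 of the 59 genes against Uninjured in GFP, HDAC5AA and HDAC5DAD, grouped by role, with 95% intervals from limma; coloured points passed at an adjusted p under 0.05. Most intervals include 0, and Col5a3, Lama5, Lamb3 and Lamb1 are coloured in all 3 panels.

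In uninjured retina the 59 genes were mostly of low abundance. Levels between genes are compared per kilobase of exon, since a long transcript yields more reads. Their median level was 21.3 normalized reads per kilobase of exon, against 62.5 for all genes, and 13 of the 59 lay above the latter. Col6a1, a chain of the beaded microfibrils of collagen VI, had the highest level at 565 ± 64.1 normalized reads per kilobase (SD, n = 4), the only one above the level of 415 that marks the top 10% of genes. Next came the transmembrane collagen gene Col23a1 at 322 ± 11.1 per kilobase, then Col9a1, a fibril-associated collagen of cartilage and vitreous, at 201 ± 29.6, and Col20a1, also fibril-associated, at 158 ± 16.6. Col4a2 (150 ± 7.19 per kilobase) and Col4a1 (149 ± 19.8) were alike within their spread. The vitreous collagen gene Col2a1 followed at 132 ± 18.01 per kilobase, and Lamb2, the laminin beta chain of the retinal and synaptic matrix, at 120 ± 6.995. At the other end stood Col6a3 and Col6a5 with 1.15 and 1.07 normalized reads per kilobase. The collagen I genes, hallmarks of fibroblasts, summed to 10.1 ± 2.07 per kilobase in Uninjured.

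**Figure D2:**
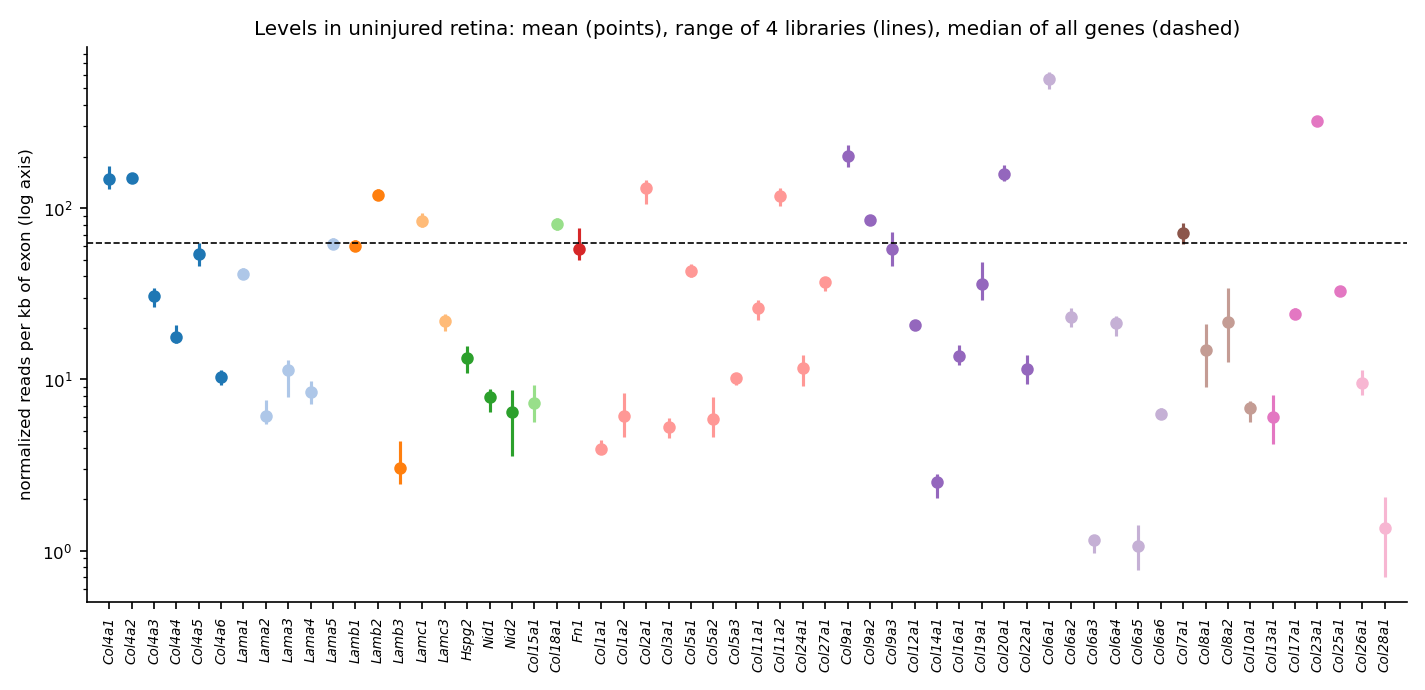
Level of 58 of the 59 genes in the 4 Uninjured libraries, in normalized reads per kilobase of exon on a log axis, grouped by role; points are means, lines the range of the libraries, and the dashed line the median of all genes. Col6a1 and Col23a1 lie highest, and most genes lie below the line.

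Collagen IV forms the network of every basement membrane, and its common form is built from the chains of Col4a1 and Col4a2. These genes lie head to head on chromosome 8 in mm10 (gene spans here are from GENCODE mouse release 21): Col4a1 occupies chr8:11198423-11312826 on the minus strand and Col4a2 chr8:11312805-11449287 on the plus strand, so that their start sites are 21 bases apart. The 2 promoters are shown because the genes share one stretch of DNA, and only Col4a1 passed the test. Each is 300 bases from RefSeq on GRCm38.p6, 5′ to 3′, from 250 bases before to 50 after the start, Col4a1 at chr8:11312777-11313076 on the minus strand and Col4a2 at chr8:11312555-11312854 on the plus strand. The windows overlap by 78 bases. Capitals mark the GC box (GGGCGG or its complement CCGCCC) and the CCAAT box (CCAAT or ATTGG).
Col4a1: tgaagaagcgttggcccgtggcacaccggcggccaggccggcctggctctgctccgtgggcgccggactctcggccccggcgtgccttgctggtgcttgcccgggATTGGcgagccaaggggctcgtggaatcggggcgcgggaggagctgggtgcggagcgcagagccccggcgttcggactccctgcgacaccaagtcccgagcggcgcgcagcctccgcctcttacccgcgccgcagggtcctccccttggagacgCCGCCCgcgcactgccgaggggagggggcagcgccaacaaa
Col4a2: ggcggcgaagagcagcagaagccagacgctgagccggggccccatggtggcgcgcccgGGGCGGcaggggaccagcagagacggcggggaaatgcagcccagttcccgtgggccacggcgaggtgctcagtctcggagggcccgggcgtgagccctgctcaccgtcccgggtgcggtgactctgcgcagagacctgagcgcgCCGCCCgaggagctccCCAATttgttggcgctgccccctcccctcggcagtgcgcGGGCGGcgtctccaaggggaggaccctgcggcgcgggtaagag
The Col4a1 window holds 1 GC box and 1 CCAAT box, and the Col4a2 window 3 and 1. Among all 32851 promoter windows, 35.7% hold a GC box and 37.4% a CCAAT box on either strand.

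Col4a1 rose in GFP and HDAC5DAD, and Col4a2 passed in no comparison; the difference between the genes was not tested. Col4a1 levels were 971, 1094, 1062 and 1319 normalized reads in Uninjured replicates 1 to 4, and 1282, 1402 and 1351 in GFP replicates 2 to 4. They were 1501, 1351, 1336 and 1146 in HDAC5AA and 1398, 1289, 1414 and 1644 in HDAC5DAD. Uninjured replicate 4 reached into the range of each injured group, and the other 3 Uninjured libraries lay below every injured one. Col4a1 rose by a log2 fold change of 0.28 ± 0.08 (SE) in GFP (limma, adjusted p = 0.0369) and 0.37 ± 0.09 in HDAC5DAD (adjusted p = 0.00971). In HDAC5AA the difference was 0.26, with an adjusted p of 0.129 (0.00755 without Uninjured replicate 4 and 0.0296 without HDAC5AA replicate 4). The call in GFP was lost in 6 of 7 fits that left out 1 library (adjusted p 0.0618 to 0.155), the exception being the fit without Uninjured replicate 4. The call in HDAC5DAD held in all 8 such fits. Among libraries with at least 1% of ribosomal RNA reads both calls were lost (limma adjusted p 0.235 in GFP and 0.232 in HDAC5DAD).

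Col4a2 levels were 960.4, 1041, 942 and 1022 in Uninjured, 914, 944 and 868 in GFP, 1044, 1086, 972 and 889 in HDAC5AA, with 941, 813, 817 and 956 in HDAC5DAD. Its log2 fold changes were -0.13 (95% interval -0.26 to 0.01), 0.01 (-0.13 to 0.14) and -0.17 (-0.31 to -0.03), with adjusted p of 0.238, 0.981 and 0.102 in limma. The ratio of Col4a1 to Col4a2 normalized reads was 1.01, 1.05, 1.13 and 1.29 in Uninjured replicates 1 to 4. In GFP it was 1.40, 1.49 and 1.56, in HDAC5AA 1.44, 1.24, 1.37 and 1.29, and in HDAC5DAD 1.49, 1.59, 1.73 and 1.72. All GFP and HDAC5DAD libraries thus lay above all Uninjured ones in this ratio, and HDAC5AA overlapped with Uninjured. The ratio was chosen after its values were seen and is given with no test. The exons of the genes share 22 bases, 0.295% of the exon bases of Col4a1.

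Col4a6, on chrX:141165403-141474076, encodes a chain found in a few specialised basement membranes, such as those of smooth muscle and epithelia. Its levels were 84.1, 73.5, 81.5 and 90.2 in Uninjured, 86.9, 160.3 and 108 in GFP, 139, 105, 118 and 123 in HDAC5AA, with 117, 138, 156 and 136 in HDAC5DAD. Both HDAC5 groups lay wholly above Uninjured, and GFP replicate 2 lay within it. Col4a6 rose 1.46-fold in HDAC5AA (log2 fold change 0.55 ± 0.13, limma adjusted p = 0.00644) and 1.65-fold in HDAC5DAD (0.72 ± 0.12, adjusted p = 0.000317). Both calls held without any 1 library. Among libraries with at least 1% of ribosomal RNA reads both were lost (limma adjusted p 0.282 in HDAC5AA and 0.0817 in HDAC5DAD). Among those under 1% the call in HDAC5AA was lost (0.112). In GFP the log2 fold change was 0.47 with a 95% interval of 0.12 to 0.83 and an adjusted p of 0.0856 (0.0165 without GFP replicate 2). Col4a3, Col4a4 and Col4a5, the chains of glomerular and other specialised membranes, passed in none of the comparisons. Per kilobase of exon, all 6 chains together summed to 411 ± 33.4 normalized reads in Uninjured, 443 ± 31.1 in GFP, 447 ± 39.4 in HDAC5AA and 448 ± 34.2 in HDAC5DAD. In that sum the share of Col4a1 was 36.1 ± 1.85% in Uninjured and 40.8 ± 1.77%, 39.9 ± 1.87% and 42.9 ± 1.82% in the injured groups. The share of Col4a2 was 36.5% and 31.1%, 33.7% and 29.7%. The Col4a6 share went from 2.52% to between 3.32% and 3.86%.

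Among laminin chains, Lamb1 fell and Lamb3 and Lama5 rose in each injured group, and Lama1, Lamb2, Lamc1 and Lamc3 passed in no comparison. Lamb1, on chr12:31265234-31329644, encodes the beta chain of early and vascular laminins. Its levels were 649, 618, 556 and 554 normalized reads in Uninjured, 418, 439.5 and 423 in GFP, 412, 476, 426 and 397 in HDAC5AA, with 444, 464, 419 and 446 in HDAC5DAD. Every injured library lay below every uninjured one, the highest of them at 476. Lamb1 fell 1.39-fold in GFP (log2 fold change -0.48 ± 0.08, limma adjusted p = 0.000173), 1.39-fold in HDAC5AA (-0.47 ± 0.08, adjusted p = 0.000247) and 1.34-fold in HDAC5DAD (-0.42 ± 0.07, adjusted p = 0.000279). These calls held without any 1 library, and the call in HDAC5AA was lost among libraries with under 1% of ribosomal RNA reads (-0.40, adjusted p = 0.103).

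The Lamb1 promoter is shown because this gene was the one member lower in all injured libraries with a passing test. It is the RefSeq window chr12:31265043-31265342 on the plus strand of GRCm38.p6, 300 bases 5′ to 3′, with 2 GC boxes and 1 CCAAT box in capitals.
Lamb1: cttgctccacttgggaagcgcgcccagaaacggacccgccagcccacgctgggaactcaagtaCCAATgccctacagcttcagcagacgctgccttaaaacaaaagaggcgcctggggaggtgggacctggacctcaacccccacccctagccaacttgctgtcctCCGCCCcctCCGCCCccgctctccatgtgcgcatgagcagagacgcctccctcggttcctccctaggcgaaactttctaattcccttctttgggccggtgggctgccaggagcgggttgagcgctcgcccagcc

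Lamb3, on chr1:193207699-193343878, encodes the beta chain of the laminin that anchors skin and other epithelia. It was the least abundant laminin beta chain, with 91 reads over the 4 Uninjured libraries. Its levels were 16.1, 17.5, 17.2 and 29.1 in Uninjured, 55.5, 34.0 and 32.3 in GFP, 52.1, 45.8, 40.7 and 52.5 in HDAC5AA, with 49.8, 44.0, 48.6 and 37.9 in HDAC5DAD. No injured library was as low as Uninjured replicate 4, which itself stood apart from the other 3. Lamb3 rose 1.98-fold in GFP (log2 fold change 0.98 ± 0.25, limma adjusted p = 0.0121), 2.38-fold in HDAC5AA (1.25 ± 0.21, adjusted p = 0.000375) and 2.25-fold in HDAC5DAD (1.17 ± 0.21, adjusted p = 0.000535). Among libraries with at least 1% of ribosomal RNA reads none of these calls held (limma adjusted p 0.118, 0.0942 and 0.0618). Without GFP replicate 2, the highest library for Lamb3, its log2 fold change in GFP was 0.74 with an adjusted p of 0.113. In that library the 6 measured lens markers summed to 1726 normalized reads, against 35.7 to 411 in the other 14 libraries. The part of lens tissue in the Lamb3 level was not tested. The 2 RefSeq promoter windows of Lamb3 hold none of the 6 motifs searched.

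Lama5, on chr2:180176373-180225859, encodes the alpha chain of most adult epithelial and vascular laminins. Its levels were 717, 759, 667 and 686 in Uninjured, 853, 1103 and 865 in GFP, 895, 974, 775 and 809 in HDAC5AA, with 909.7, 758, 787 and 930.5 in HDAC5DAD. All GFP and HDAC5AA libraries lay above Uninjured, and HDAC5DAD replicate 2 lay just below its highest library. Lama5 rose 1.32-fold in GFP (log2 fold change 0.40 ± 0.08, limma adjusted p = 0.00304), 1.22-fold in HDAC5AA (0.28 ± 0.07, adjusted p = 0.0158) and 1.19-fold in HDAC5DAD (0.25 ± 0.07, adjusted p = 0.0240). The call in HDAC5AA was lost without Uninjured replicate 3, HDAC5AA replicate 1 or HDAC5AA replicate 2 (adjusted p 0.0503 to 0.067). The call in HDAC5DAD was lost without Uninjured replicate 3 or 4, or HDAC5DAD replicate 1 or 4 (0.0681 to 0.111). In HDAC5AA the call was also lost among libraries with at least 1% of ribosomal RNA reads (0.17, limma adjusted p = 0.463). It was lost there too under 1% (0.39, 0.0715). In HDAC5DAD the call was also lost under 1% and in 1 fit of all 4 groups. Over the alternatives its log2 fold change ran from 0.12 to 0.39, with an adjusted p of up to 0.499.

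Lama1 encodes the alpha chain of the first embryonic laminin and of the inner limiting membrane. It was chosen for mention after its values were seen. Its levels were 380.0, 431, 382 and 394 in Uninjured, 356, 361 and 361 in GFP, 368, 377, 366 and 375 in HDAC5AA, with 346, 304, 331 and 379.8 in HDAC5DAD. All injured libraries lay below all uninjured ones, HDAC5DAD replicate 4 only just so. The log2 fold changes were -0.14, -0.09 and -0.23, and limma gave adjusted p of 0.293, 0.597 and 0.0767. The 95% intervals were -0.31 to 0.02, -0.24 to 0.06 and -0.40 to -0.06.

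Lamb2 levels were 719, 789, 688 and 725 in Uninjured, 690.5, 927 and 796 in GFP, 761, 850.1, 793 and 735 in HDAC5AA, with 794, 795, 849 and 897 in HDAC5DAD. HDAC5DAD lay wholly above Uninjured, with a log2 fold change of 0.19 ± 0.06 and an adjusted p of 0.0601 in limma (0.0309 without Uninjured replicate 2 and 0.0446 without HDAC5DAD replicate 1). Lamc1, the gamma chain of most laminins, had 642 to 778 normalized reads in Uninjured and 631 to 816 in the injured libraries, with log2 fold changes of 0.12, 0.01 and -0.02. The other 3 alpha chains, Lama2, Lama3 and Lama4, and the gamma chain Lamc3 passed in none of the comparisons.

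Taken as shares of each family's level per kilobase of exon, the make-up of the laminins differed between uninjured and injured retina. Lamb1 made up 31.1% to 35.2% of the beta chains in Uninjured and 25.7% or less in every injured library. The group means were 32.7 ± 1.75% in Uninjured (SD, n = 4), 23.9 ± 1.87% in GFP (n = 3), 24.0 ± 0.433% in HDAC5AA and 23.7 ± 1.46% in HDAC5DAD (n = 4 each). The Lamb3 share was 1.66 ± 0.534% in Uninjured and 3.47%, 4.05% and 3.63% in the injured groups. The groups overlapped in the total of the beta chains, with 183 ± 9.75 normalized reads per kilobase in Uninjured, 182 ± 19.1 in GFP, 179 ± 11.1 in HDAC5AA and 189 ± 6.90 in HDAC5DAD. Among alpha chains Lama5 made up 46.4% to 50.7% in Uninjured and at least 51.6% in every injured library, and Lama1 31.3% to 32.6% and at most 29.3%. These shares rest on the same reads as the levels above and are given as a description, with no test.

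**Figure D3:**
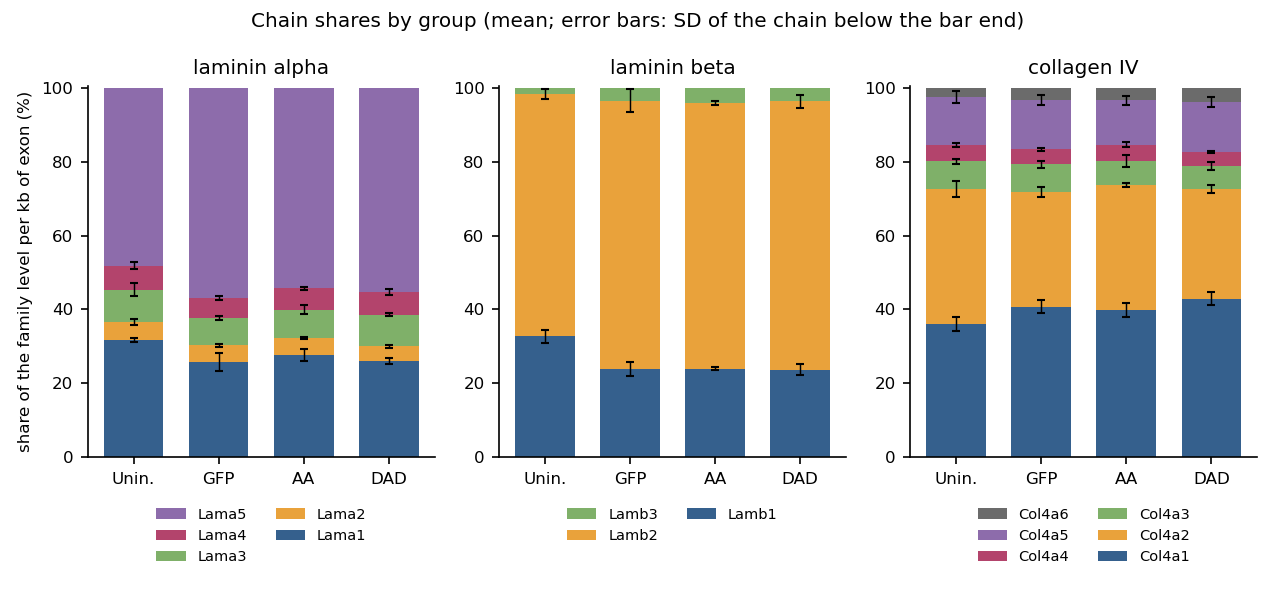
Mean share of each laminin alpha, laminin beta and collagen IV chain in the summed level per kilobase of exon of its family, in percent, for Uninjured (Unin.), GFP, HDAC5AA (AA) and HDAC5DAD (DAD); error bars are the SD over libraries of the chain below them. In the injured groups the Lamb1 and Lama1 shares are smaller, and the Lama5, Lamb3 and Col4a1 shares larger, than in Uninjured.

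Of the linkers of basement membranes, Nid1 rose in HDAC5AA. Nid1, which ties laminin to collagen IV, had 44.9, 56.8, 56.4 and 61.2 normalized reads in Uninjured, 59.6, 81.8 and 45.3 in GFP, 65.8, 89.99, 83.9 and 79.8 in HDAC5AA, with 66.9, 56.7, 68.6 and 66.5 in HDAC5DAD. HDAC5AA lay wholly above Uninjured, while GFP and HDAC5DAD overlapped with it. The log2 fold change in HDAC5AA was 0.53 ± 0.15 (limma adjusted p = 0.0310), and in GFP and HDAC5DAD it was 0.14 and 0.24 (adjusted p = 0.712 and 0.371). The call was lost in 6 of 8 fits that left out 1 library (adjusted p 0.0534 to 0.113), and held without Uninjured replicate 4 or HDAC5AA replicate 1. Between HDAC5AA and GFP the difference was 0.39 with a 95% interval of 0.02 to 0.75 and an adjusted p of 0.754.

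Hspg2, the gene of the heparan sulfate proteoglycan perlecan, had 155 to 225 normalized reads in Uninjured, 184 to 285 in GFP, 167 to 260.5 in HDAC5AA and 172 to 214 in HDAC5DAD. It passed in no comparison. Fn1, whose product fibronectin is a plasma and provisional matrix protein, had 629, 895, 581 and 599 in Uninjured, 772, 1065 and 668 in GFP, 636, 1158, 742 and 753 in HDAC5AA, with 879.8, 648, 797 and 843 in HDAC5DAD. The groups overlapped, and the log2 fold changes of 0.30, 0.27 and 0.24 had adjusted p of 0.529, 0.666 and 0.391 in limma. Without Uninjured replicate 2, the highest of its group, Fn1 was higher in HDAC5DAD (0.38, adjusted p = 0.00773). Col18a1, the collagen of basement membranes from which endostatin is released, had 616, 595, 527 and 539 in Uninjured, 564, 1463 and 592 in GFP, 664, 639, 607 and 553 in HDAC5AA, with 614, 635, 669.8 and 651 in HDAC5DAD. GFP replicate 3 alone stood above the rest, and its 95% interval in GFP reached from -0.49 to 1.42 on the log2 scale.

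Among fibril-forming collagens, Col5a3 rose in all injured groups. Col5a3, on chr9:20770050-20815067, encodes a minor chain of collagen V, the collagen found inside fibrils of collagen I. Its levels were 71.4, 63.5, 72.9 and 71.6 normalized reads in Uninjured, 132, 162 and 145 in GFP, 191, 156, 144 and 156 in HDAC5AA, with 225, 144, 153 and 221 in HDAC5DAD. The lowest injured library, at 132, lay above the highest uninjured one, at 72.9. Col5a3 rose 2.08-fold in GFP (log2 fold change 1.06 ± 0.13, limma adjusted p = 8.13e-06), 2.29-fold in HDAC5AA (1.19 ± 0.12, adjusted p = 1.19e-06) and 2.58-fold in HDAC5DAD (1.37 ± 0.14, adjusted p = 1.22e-06). These calls held in every alternative tried. The Col5a3 share of the collagen V level per kilobase of exon was 17.3 ± 0.560% in Uninjured and 27.4%, 30.0% and 36.5% in the injured groups.

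The Col5a3 promoter is shown because this gene had the smallest adjusted p of the 59 in each comparison with Uninjured. It is the RefSeq window chr9:20815018-20815317 on the minus strand of GRCm38.p6, 300 bases 5′ to 3′, with 3 GC boxes and 1 CCAAT box in capitals.
Col5a3: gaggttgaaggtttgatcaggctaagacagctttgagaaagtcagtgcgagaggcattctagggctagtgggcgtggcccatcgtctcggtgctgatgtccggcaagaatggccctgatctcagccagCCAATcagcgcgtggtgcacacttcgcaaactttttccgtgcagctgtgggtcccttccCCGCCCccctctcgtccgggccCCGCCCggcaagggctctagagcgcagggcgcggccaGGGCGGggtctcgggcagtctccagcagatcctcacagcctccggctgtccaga
Of the 59 genes, 42 had a RefSeq promoter window, 46 windows in all. The GC box stood in 28 of these (60.9%) and the CCAAT box in 15 (32.6%), and their median GC content was 59.8% against 52.7% for all windows. The motifs TGANTCA (bound by AP-1), TGACGTCA (the cyclic AMP response element), TTCNNNGAA (bound by STAT factors) and TATAAA, each searched on both strands, stood in 1, 1, 3 and 5 of the 46 windows. In all windows their shares were 7.81%, 1.79%, 8.3% and 13.6%. None of the 6 motifs contains another, and a match is a description of the sequence only.

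Col3a1, the collagen of reticular fibers and vessel walls, was higher in GFP and HDAC5DAD but spread widely. Its levels were 54.1, 58.5, 44.7 and 48.8 in Uninjured, 65.4, 162 and 99.1 in GFP, 49.4, 187, 87.6 and 121 in HDAC5AA, with 122, 56.7, 175 and 157 in HDAC5DAD. HDAC5AA replicate 1 and HDAC5DAD replicate 2 lay within Uninjured, and the other injured libraries lay above it. Col3a1 rose by 0.97 ± 0.24 in GFP (limma adjusted p = 0.0168) and by 1.18 ± 0.31 in HDAC5DAD (adjusted p = 0.0347), while HDAC5AA gave 0.94 with an adjusted p of 0.195, all on the log2 scale. Without HDAC5AA replicate 1 the latter was 1.28 with an adjusted p of 0.000512. The call in GFP was lost without Uninjured replicate 1, 3 or 4 or GFP replicate 3 or 4 (adjusted p 0.0509 to 0.0708). The call in HDAC5DAD was lost without any 1 Uninjured library or HDAC5DAD replicate 1 or 4 (0.0646 to 0.101). Of the 10 fibroblast markers 5 were in the tables and 0 passed, with a summed level of 336 to 432 in Uninjured, 403 to 643 in GFP, 367 to 486 in HDAC5AA and 388 to 493 in HDAC5DAD. Col1a1 and Col1a2, the collagen I genes, passed in no comparison.

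Col2a1, the main collagen of vitreous and cartilage fibrils, was lower in both HDAC5 groups. Its levels were 979, 1357, 1292 and 1250.1 in Uninjured, 893, 1120.1 and 862 in GFP, 809, 778, 760.0 and 827 in HDAC5AA, with 1034, 782, 802 and 959 in HDAC5DAD. HDAC5AA lay wholly below Uninjured, whose lowest library, replicate 1, lay within GFP and HDAC5DAD. Col2a1 fell 1.53-fold in HDAC5AA (log2 fold change -0.61 ± 0.08, limma adjusted p = 7.34e-05), a call that held in every alternative tried. In HDAC5DAD it fell 1.36-fold (-0.45 ± 0.11, adjusted p = 0.0205), a call lost without Uninjured replicate 2, 3 or 4 or HDAC5DAD replicate 2 or 3 (adjusted p 0.0536 to 0.0618). The call was also lost among libraries with at least 1% of ribosomal RNA reads (-0.16, limma adjusted p = 0.439) and with a replicate block (0.0645). Over the alternatives the log2 fold change in HDAC5DAD ran from -0.74 to -0.16. In GFP the log2 fold change was -0.35 with a 95% interval of -0.65 to -0.05 and an adjusted p of 0.144, and it was -0.45 without Uninjured replicate 1 (adjusted p = 0.00289) and -0.47 without GFP replicate 3 (0.0203).

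Col5a2, the partner of Col5a1 in common collagen V, varied widely between libraries of a group. It was chosen for mention after its values were seen. Its levels were 44.1 to 76.0 in Uninjured and 39.5 to 78.8 in HDAC5DAD, but 247, 160.3 and 63.6 in GFP and 85.0, 125, 65.4 and 268 in HDAC5AA. The log2 fold changes of 1.29 in GFP and 1.07 in HDAC5AA had limma adjusted p of 0.202 and 0.269, with 95% intervals of 0.04 to 2.53 and 0.02 to 2.12. Col11a2, which codes for a chain of the minor fibril collagen XI, had 710.0 to 905 normalized reads in Uninjured and 574 to 893 in the injured libraries, and passed in no comparison. The other fibril-forming collagens that did not pass had log2 fold changes between -0.37 and 0.45 in HDAC5DAD.

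**Figure D4:**
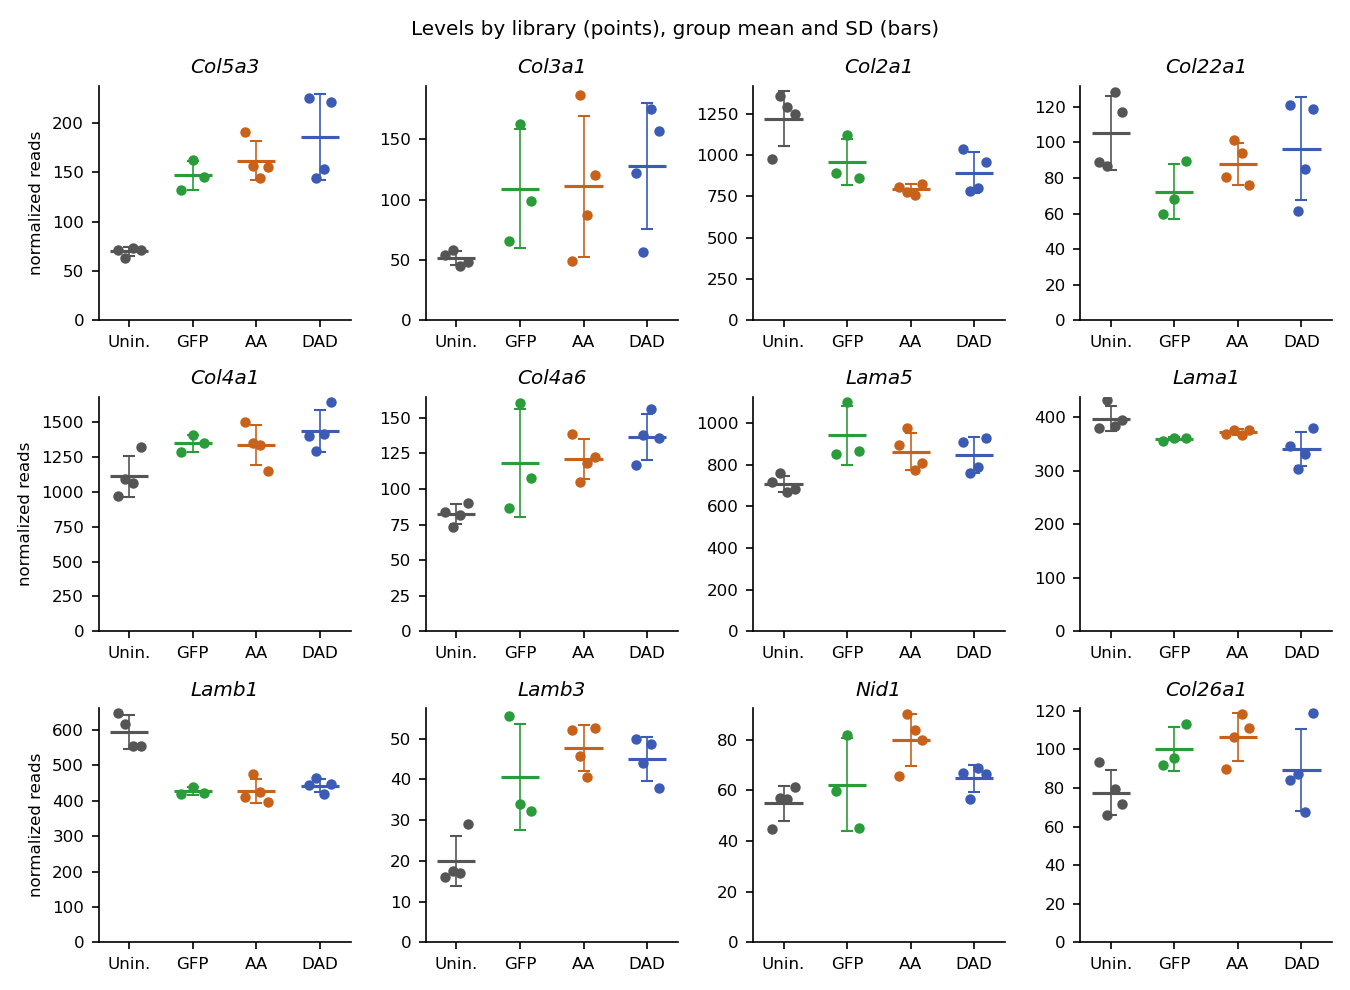
Normalized reads of 12 genes in each library of Uninjured, GFP, HDAC5AA and HDAC5DAD; points are libraries, and lines are group means ± SD. For Col5a3 and Lamb3 all injured points lie above all uninjured points, and for Lamb1 all lie below.

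The remaining collagens changed in few cases. Of 9 fibril-associated collagens, which decorate the surface of fibrils, Col22a1 was lower in GFP. Its levels were 88.7, 86.9, 128 and 117 in Uninjured, 59.6, 68.0 and 89.4 in GFP, 80.4, 101.04, 93.8 and 75.9 in HDAC5AA, with 121, 61.2, 85.1 and 119 in HDAC5DAD. GFP overlapped with Uninjured through replicate 4. The log2 fold change was -0.54 ± 0.17 (limma adjusted p = 0.0431) in GFP and -0.25 and -0.16 in HDAC5AA and HDAC5DAD (0.442 and 0.719), and the call was lost without Uninjured replicate 3 or 4 or GFP replicate 2 or 3 (0.103 to 0.199). Col26a1, an extracellular collagen first described in testis and ovary, had 93.3, 66.0, 79.7 and 71.6 in Uninjured, 91.9, 95.5 and 113 in GFP, 89.6, 107, 118 and 111 in HDAC5AA, with 84.0, 87.3, 67.8 and 119 in HDAC5DAD. It rose in HDAC5AA by 0.45 ± 0.14 (limma adjusted p = 0.0488), with Uninjured replicate 1 inside the HDAC5AA range. This call was lost in 6 of 8 fits that left out 1 library (0.0822 to 0.16), and held without Uninjured replicate 1 or HDAC5AA replicate 1.

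None of the 6 collagen VI chains passed. Col6a1 had 2183, 2287, 2707 and 2725 normalized reads in Uninjured, 2212, 1913 and 2144 in GFP, 2319, 1885, 2327 and 2333 in HDAC5AA, with 2558, 1917, 1942 and 2766 in HDAC5DAD. Its log2 fold change in GFP was -0.24 with a 95% interval of -0.41 to -0.07 and an adjusted p of 0.0635 in limma, which was 0.0169 without Uninjured replicate 1 and 0.0480 without Uninjured replicate 2. Col23a1 was the steadiest of the abundant genes, with 1791 to 1936 in Uninjured and 1702 to 2034 in the injured libraries, and log2 fold changes of -0.06, -0.00 and 0.06. Col9a1 had 887 to 1186 in Uninjured and 809 to 1192 in the injured libraries, and Col7a1, the collagen of anchoring fibrils, 632 to 840.3 and 486 to 816. Neither passed.

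The short-chain collagens of sheet-like networks, such as Descemet's membrane of the cornea and Bruch's membrane, passed in no comparison. Their levels are set beside the summed level of the 10 pigment epithelium markers, a comparison chosen after the values were seen. Col8a2 levels were 115, 56.8, 65.0 and 152 in Uninjured replicates 1 to 4, and Col8a1 levels were 149, 71.0, 80.3 and 164. The markers summed to 2538, 903, 1024 and 3542 in the same libraries, so that replicates 1 and 4 were the higher ones for all of these. The markers did not all do so: Pmel and Best1 were lowest in Uninjured replicate 4, at 33.2 and 17.6. In GFP, Col8a2 had 39.7, 233 and 144 and the markers summed to 901, 5340 and 2350 in replicates 2 to 4, again in one order, with Best1 lowest in replicate 3. In HDAC5DAD the order differed: Col8a2 had 167, 125, 131 and 83.9, and the markers summed to 2298, 2530, 1561 and 973.5 in replicates 1 to 4. Among libraries with under 1% of ribosomal RNA reads Col8a2 was higher in HDAC5DAD (log2 fold change 1.07, limma adjusted p = 0.00192). Whether adhering pigment epithelium had a part in the Col8a1 and Col8a2 levels was not tested.

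Between the injured groups no member passed. In limma 0 of the 59 passed for HDAC5AA against GFP, where 0.0% of all genes passed, 0 for HDAC5DAD against GFP (0.0%) and 0 for HDAC5AA against HDAC5DAD (0.0103%, or 2 genes of 19495, with 0.00513% in each direction). At an unadjusted p under 0.05 there were 3, 4 and 3 members, or 5.08%, 6.78% and 5.08%, beside 6.59%, 11.5% and 6.78% of all genes. They were Col14a1, Col2a1 and Nid1, then Col10a1, Col12a1, Col5a2 and Col5a3, then Col4a2, Col5a2 and Col9a2. Both edgeR and DESeq2 on recovered reads also gave 0 members in each of these comparisons. The 95% intervals reached a median of 0.33, 0.33 and 0.30 to either side of the log2 difference, and at most 1.24, 1.24 and 1.15. The differences of the 59 ran from -0.72 to 0.65, -1.34 to 0.51 and -0.51 to 1.12, and none passed. The reach differed between genes and was at least 0.12, 0.12 and 0.11. Differences smaller than a gene's own reach could not be told from 0, and larger ones could be missed as well.

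For Col5a3, HDAC5AA differed from GFP by 0.14 (95% interval -0.16 to 0.44) and HDAC5DAD from GFP by 0.31 (0.01 to 0.61, limma adjusted p = 0.427), on the log2 scale. For Lamb3 the differences were 0.27 (-0.19 to 0.72) and 0.18 (-0.27 to 0.64). For Lamb1 they were -0.00 (-0.16 to 0.16) and 0.05 (-0.11 to 0.21). Col2a1 was lower in all 4 HDAC5AA libraries than in any GFP library, with a difference of -0.26 (-0.51 to -0.01, adjusted p = 0.754). In the same sense of groups that do not overlap, HDAC5AA lay above GFP for 2 members and below for 2, where 4.22% and 3.68% of all genes did so. HDAC5DAD lay above GFP for 0 members and below for 1 (5.81% and 5.13% of all genes), and HDAC5AA above HDAC5DAD for 0 and below for 1 (1.69% and 1.52%). Col4a6, Col4a1 and Nid1 passed in some injured groups and not in others, and for none of them was the difference between injured groups past the threshold.

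Genes that make, process and bind these proteins were examined as 5 lists. Of 20 enzymes and chaperones of collagen folding, P3h4 fell in GFP (-0.39), Serpinh1, the collagen chaperone of the endoplasmic reticulum, rose in HDAC5AA (0.28) and HDAC5DAD (0.36), and Fkbp10 rose in HDAC5DAD (0.34). The list's median log2 fold change was -0.01, -0.01 and 0.04. Of 13 measured enzymes of procollagen processing and cross-linking 4, 3 and 4 rose and 0 fell in GFP, HDAC5AA and HDAC5DAD. Bmp1, the procollagen C-proteinase, rose by 0.51, 0.46 and 0.55 on the log2 scale, and Tgm2, a cross-linking transglutaminase, by 1.11, 1.13 and 1.33 (limma adjusted p of 0.00164 or less for both).

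Of 25 measured receptors 4, 4 and 11 rose, and 1 fell in HDAC5DAD (Sdc3). Cd44, a receptor for hyaluronan and matrix proteins, rose by 1.45 ± 0.11, 1.40 ± 0.09 and 1.60 ± 0.09 on the log2 scale (limma adjusted p of 1.73e-08 or less). Its levels were 192 to 225 normalized reads in Uninjured and 489 to 707 in the injured libraries, with no overlap. The fibronectin receptor chain Itga5 rose by 0.75, 0.80 and 0.68, and Itgav by 0.29, 0.40 and 0.46. None of these receptors passed between injured groups, so the 11 in HDAC5DAD against 4 in the other groups is a count of calls and not a tested difference.

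Of 17 other basement membrane genes 0, 2 and 1 rose and 1, 1 and 2 fell. Fras1, whose product ties epithelia to the membrane beneath, fell by 0.94, 1.04 and 1.22 on the log2 scale (limma adjusted p of 0.00102 or less). Of 31 other matrix genes 5, 3 and 6 rose and 2, 3 and 2 fell. Tgfbi, a collagen-binding matrix protein, rose by 1.77, 2.21 and 2.37, from 13.5 to 23.03 normalized reads in Uninjured to 32.3 to 157 in the injured libraries. Spp1, which is also in the myeloid list, rose by 0.77, 0.93 and 1.03. The proteoglycan gene Bcan fell by 0.57, 0.70 and 0.67, and Sparcl1, a glial matrix protein gene, by 0.38, 0.30 and 0.31.

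Some libraries were high or low for many of the 59 genes at once. GFP replicate 3 was the highest of all 15 libraries for 17 of them (28.8%), against 9.03% of all genes. Col18a1 stood at 1463 there against 669.8 in the next library, Nid2 at 73.3 against 44.6, and Col8a1 at 244 against 187. In that library Optc, a vitreous and ciliary body proteoglycan, had 197 normalized reads against 9.94 to 32.6 in the others, and the 10 pigment epithelium markers summed to 5340 against 724 to 3542. Mfap4, of elastic fibers, had 84.9 against 1.95 to 11.5. The 5 measured fibroblast markers summed to 643 there and to 336 to 493 in the others. Ogn and Islr were raised there, with 99.8 and 119 there against at most 19.6 and 50.7 elsewhere, while Pdgfra (392) and Prrx1 (14.9) lay within the range of the others and Dcn (18.05) just above it. Their part in the GFP levels was not tested. Without GFP replicate 3, 5 members passed in GFP in place of 7 (3 higher, 2 lower). Calls over all 19961 genes fell as well, from 2276 to 1594. Without GFP replicate 2, 5 members and 1924 of all genes passed, and without GFP replicate 4, 6 and 1691. With GFP replicate 3 left out, the calls for Col22a1, Col3a1 and Col4a1 were lost. Col2a1 then passed as lower (log2 fold change -0.47, limma adjusted p = 0.0203).

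Within HDAC5DAD, replicates 1 and 4 were higher than replicates 2 and 3 for 35 of the 59 genes (59.3%), against 22.9% of all genes. Replicates 1 and 4 are also the HDAC5DAD libraries with at least 1% of ribosomal RNA reads. Col5a3 had 225 and 221 in them and 144 and 153 in the others, and Col7a1 769 and 816 against 486 and 655. Within Uninjured, replicates 3 and 4 were higher than 1 and 2 for 20 genes (33.9%, against 19.6% of all genes). The HDAC5DAD split held for all 20 of these as well. Both splits together thus held for 33.9% of the 59 genes and for 7.17% of all genes. In Uninjured the split did not follow the ribosomal RNA share, which was 1.81% and 2.46% in replicates 1 and 4. The coefficient of variation of the 59 genes had a median of 12.5% in Uninjured, 14.7% in GFP, 12.4% in HDAC5AA and 14.9% in HDAC5DAD.

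**Figure D5:**
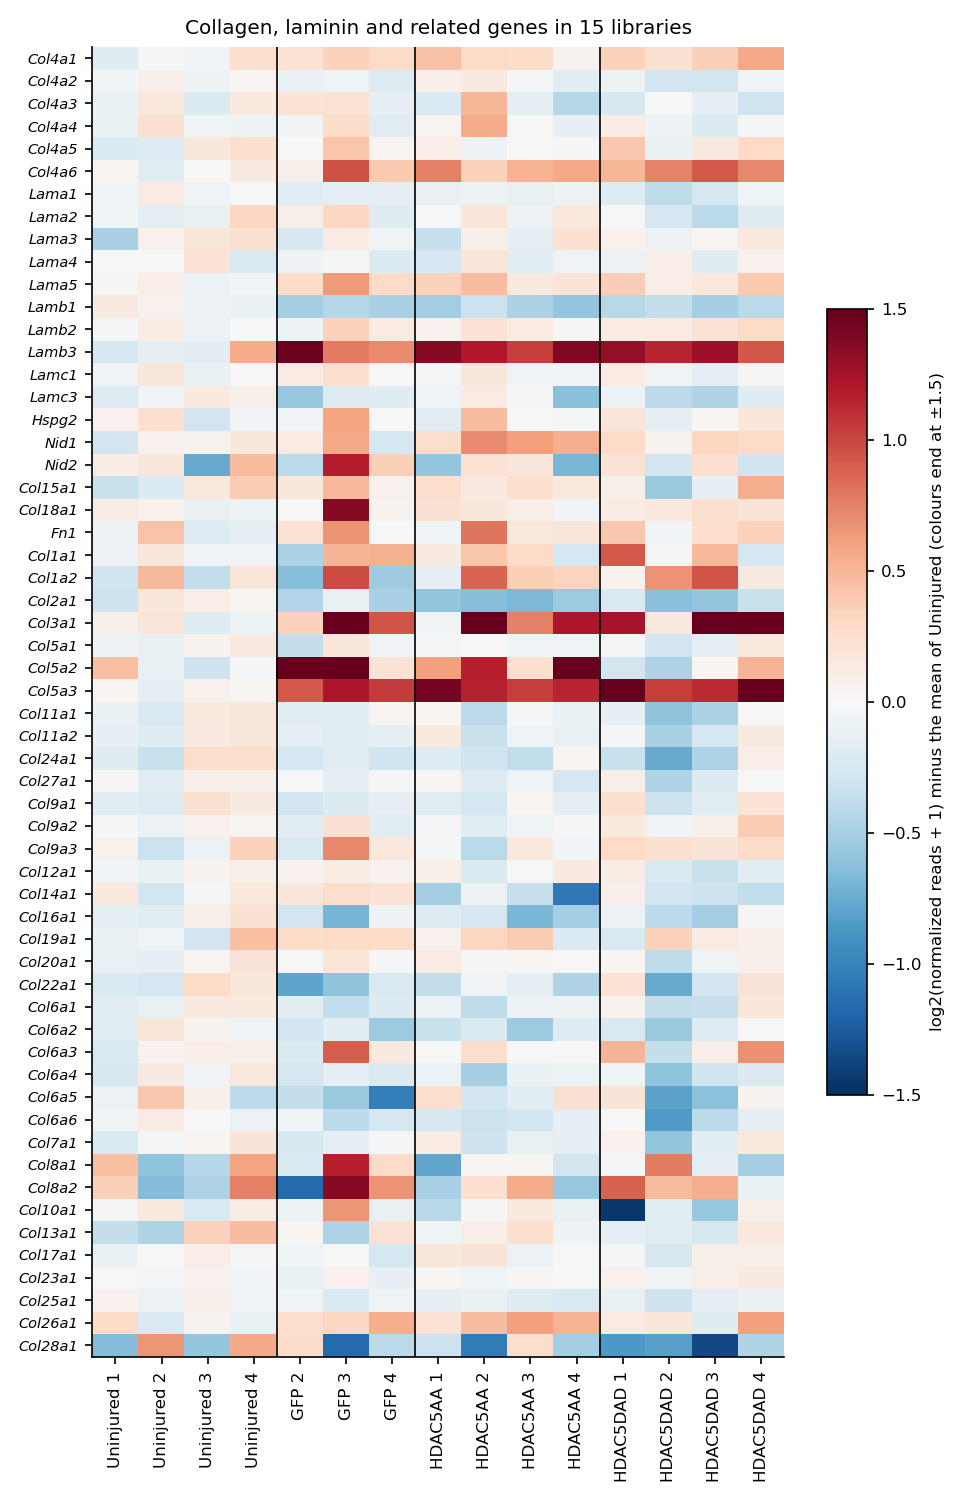
Log2(normalized reads + 1) minus the Uninjured mean for 58 of the 59 genes (grouped by role) in the 15 libraries; red is higher and blue lower. GFP replicate 3 stands out for Col18a1 and Nid2, and Col5a3 and Lamb3 are red in all injured libraries.

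In the authors' deposited table, 11 members had an adjusted p under 0.1 in GFP (7 higher, 4 lower), 11 in HDAC5AA (8 and 3) and 10 in HDAC5DAD (7 and 3). Of all genes with an adjusted p in the authors' deposited table, 13.7%, 10.1% and 15.6% were under 0.1. All members that passed in limma are among them. Beside these, the authors' deposited table has Col2a1, Col4a6, Col5a2 and Col6a1 in GFP, Col3a1, Col4a1 and Col6a2 in HDAC5AA, and Lama1 and Lamb2 in HDAC5DAD. Exons of 19 of the 59 genes overlap with exons of another gene, by at most 8.45% of the exon bases (Nid2), and whether reads were counted by strand is not given in the sources used here.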

How the data were processed

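Whole-retina RNA was depleted of ribosomal RNA, made into SMARTer libraries and sequenced on an Illumina instrument as single reads of 50 bases, per the labels' protocols. STAR, HTSeq, DESeq2 and the build mm10 are listed, with no versions, in the submitters' processing notes. The 3 deposited tables each compare 1 injured group with Uninjured and hold a normalized signal per gene and library, which the authors made by dividing gene counts by a size factor. They also hold the authors' deposited log2 fold changes and p-values, which were used only where named.

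Dividing each library by the value of 1 read gave whole reads for 100% of values (within 0.01). Since the deposited unit is normalized, the main test was limma 3.58.1 (R 4.3.3, trend, robust) on log2(value + 1), two-sided, leaving out genes whose mean was under 1, with Benjamini-Hochberg adjustment over all genes of the table. The injured groups were compared in 1 fit of all 15 libraries, on recovered reads scaled by median-of-ratios size factors (19495 genes in all 3 tables). That scale also gives the printed levels. Fold changes on a log2(value + 1) scale understate the change of low genes. The same 4 Uninjured libraries stand in each table.

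Alternatives were another pseudocount, other filters, edgeR 4.0.16 and DESeq2 1.42.0 on recovered reads, a replicate block, leaving out each library, libraries split at 1% of ribosomal RNA reads, other scalings and other sets of groups. The split under 1% was added after seeing the data. Scripts were tested on simulated data. Exon lengths came from GENCODE mouse release 21, which holds 20190 of the 20278 gene IDs, and promoter sequences from RefSeq on GRCm38.p6.

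The members and the gene lists were chosen with earlier results of these data known. The genes described singly are those that passed in at least 1 comparison and the one with the highest level per kilobase in each role, and others were chosen after seeing their values, including Col4a2, Col5a2, Col8a1, Nid2 and Lama1. Pathway genes given with values passed in all 3 comparisons with Uninjured, except P3h4, Serpinh1, Fkbp10 and Sdc3, chosen after seeing their values. 1 member was tested and is included in the counts, but is not reported here singly.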

Additional observations from a re-analysis of the deposited data

Results flagged for a closer look

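In 5 of 66 groups of 4 libraries examined, 1 library lay far from the other 3 for a described gene. Chance alone gives such a gap in about 1 in 20 groups. Col5a3 had its lowest uninjured level in Uninjured replicate 2, at 63.5 normalized reads against 71.4 to 72.9 in the others. Col6a1 was lowest in HDAC5AA replicate 2, at 1885 against 2319 to 2333. Fn1 was highest in Uninjured replicate 2, at 895 against 581 to 629. Lamb3 was highest in Uninjured replicate 4, at 29.05 against 16.1 to 17.5. Lamc1 was highest in HDAC5AA replicate 2, at 777.5 against 664 to 679.9.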

How the results depend on the processing

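No described gene changed sign with a call under any alternative. Of the members, 7 passed in GFP, 8 in HDAC5AA and 8 in HDAC5DAD against Uninjured. Leaving out 1 library gave 4 to 7, 5 to 8 and 5 to 8, with 4, 5 and 5 without Uninjured replicate 3 and 5 in HDAC5AA without HDAC5AA replicate 2. Libraries with at least 1% of ribosomal RNA reads gave 3 in GFP and 4 in HDAC5AA, those under 1% gave 5 in HDAC5AA, and all 4 groups in 1 fit gave 4 in GFP. The ribosomal RNA subsets hold fewer libraries; for the fit of all 4 groups, which holds all 15, the cause was not tested. Col5a3 kept its call in all 3 comparisons, Lamb1 in GFP and HDAC5DAD, Lama5 in GFP and Col2a1 in HDAC5AA, under every alternative run. edgeR gave 6, 9 and 8 members and DESeq2 10, 7 and 8. Between injured groups all alternatives gave 0 members. Over all genes, HDAC5AA against Uninjured gave 863 calls among libraries with at least 1% and 781 among those under 1%, in place of 1685. HDAC5DAD against GFP gave 59 by DESeq2, 13 among libraries with at least 1% and 11 with only those groups, in place of 0. Same-numbered libraries did not deviate together (3 of 21 pairs had a correlation above 0.1, range -0.174 to 0.238), so the numbers are not taken as pairs. With the replicate number as a block, 7, 9 and 7 members passed. In GFP these were 2 higher and 5 lower, in place of 5 and 2: Col3a1, Col4a1 and Lamb3 were lost (adjusted p 0.108, 0.108 and 0.0554), and Col2a1, Col6a1 and Col9a1 passed as lower. With GFP replicate 1 not analysed, Uninjured replicate 1 had no partner and added nothing to the GFP fold changes of that fit. They equal those of the fit without this library, as for Col4a1 (0.22) and Col2a1 (-0.45). Genes with few reads, such as Lamb3 with 91 reads in Uninjured, are the least precise.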

Other observations

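Lens markers were uneven between libraries. The 6 measured lens markers summed to 1726 normalized reads in GFP replicate 2, against 40.4 and 151 in the other GFP libraries and 35.7 to 180.5 in Uninjured, where replicate 4 was the highest. The sums were 120 to 286 in HDAC5AA and 41.3 to 411 in HDAC5DAD. In limma 2 of the 6 rose in HDAC5AA and 0 in the other groups. Of 7 measured astrocyte markers 3, 3 and 4 rose, and 1, 1 and 0 fell. The ratio of Col4a6 to Col4a5, another head-to-head pair of collagen IV genes, was 0.203 to 0.272 in Uninjured, 0.245 to 0.336 in GFP, 0.312 to 0.362 in HDAC5AA and 0.248 to 0.416 in HDAC5DAD, given with no test.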
